A study of Arabidopsis thaliana with 12 samples.

Results

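The cytochrome P450 family was described from the 23 probe sets whose only gene in the platform annotation has a symbol made of CYP, a family number and a subfamily letter. They were 23 of the 22746 probe sets on the array that are not controls. RefSeq's gene table for TAIR10.1 holds 253 P450 genes by symbol or synonym, and 23 of them had such a probe set, so most of the family was not analysed here under its own name. Of the 23 members, 19 belong to the subfamily CYP71B, and the other 4 are CYP51G2, CYP78A9, CYP79A2 and CYP84A4. The RefSeq table lists 2 of the members, CYP71B27 and CYP51G2, as transcribed pseudogenes.

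Plant P450s are haem-thiolate monooxygenases of the endoplasmic reticulum that take electrons from NADPH through a P450 reductase and put 1 atom of oxygen into a substrate. They act in the synthesis of lignin, sterols, hormones and defence compounds and in the breakdown of hormones and foreign chemicals. The CYP71 family is the largest in plants, and its subfamily CYP71B includes PAD3, the enzyme of the last step of camalexin synthesis, which is not among the members.

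Transcript signals were measured on 12 Affymetrix ATH1 arrays of total RNA from whole seedlings of the Columbia background, 5 days old and grown in liquid MS culture. The 4 groups had 3 arrays each. They were Zat12 seedlings given 20 mM H2O2 for 1 hour, untreated Zat12 seedlings, wildtype seedlings given the same treatment, and untreated wildtype seedlings. Zat12 seedlings are transgenic and express the zinc finger protein Zat12 constitutively from the 35S promoter of cauliflower mosaic virus. The labels do not say how many transgenic lines were used or whether replicates came from separate cultures, so the p-values cover only the variation among these arrays, part or all of which may be technical. No probe set was named for ZAT12 itself, so its level was not analysed here. Whole seedlings mix many cell types, and fewer cells of a type and less RNA per cell cannot be told apart.

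The arrays had been scaled to a common trimmed mean, and median signals lay between 40.7 and 44.9. On replicate 2 of untreated Zat12, 28.1% of the probe sets (6408) were left blank, among them those of 6 members. The control for 25S ribosomal RNA averaged 227 ± 81.9 in H2O2-treated Zat12, 173 ± 92.3 in untreated Zat12, 232 ± 92.3 in H2O2-treated wildtype and 71.4 ± 48.1 in untreated wildtype (SD, n = 3 each), and the last group also held the array with the highest ratio of 3' to 5' actin signal, 9.50. Of 17 marker genes of green shoot, root and seed, 2 had a named probe set, and both had signals above 28.1 on all arrays. LHCB4.3, a light-harvesting protein, was between 121.3 and 256.3, and EXPA7, a root hair expansin, between 36.8 and 111.9. No seed marker had a named probe set.

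Of the 23 members, 8 were tested because their mean of log2(signal + 3) was above 4.96, which corresponds to a signal of 28.1. They were CYP84A4 and 7 CYP71B genes. The remaining 15 were below that filter and are described after the comparisons. The filter used the mean over all 12 arrays and not any comparison.

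None of the 8 tested members passed the test in any of the 5 comparisons, at a Benjamini-Hochberg adjusted p below 0.05 in limma over all 13647 probe sets tested. The background share was 17.3% of all probe sets for H2O2 in Zat12, 22% for H2O2 in wildtype, 1.22% for Zat12 against wildtype without treatment, 2.92% for the same under H2O2 and 0.11% for the interaction, which is the H2O2 difference in Zat12 minus that in wildtype. At an unadjusted p below 0.05 the counts of members were 1, 2, 1, 1 and 0 of 8 in that order of comparisons, beside 29.6%, 34.5%, 12.0%, 16.7% and 7.12% of all probe sets. None of these counts over 8 members was read as a property of the family.

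**Figure D1:**
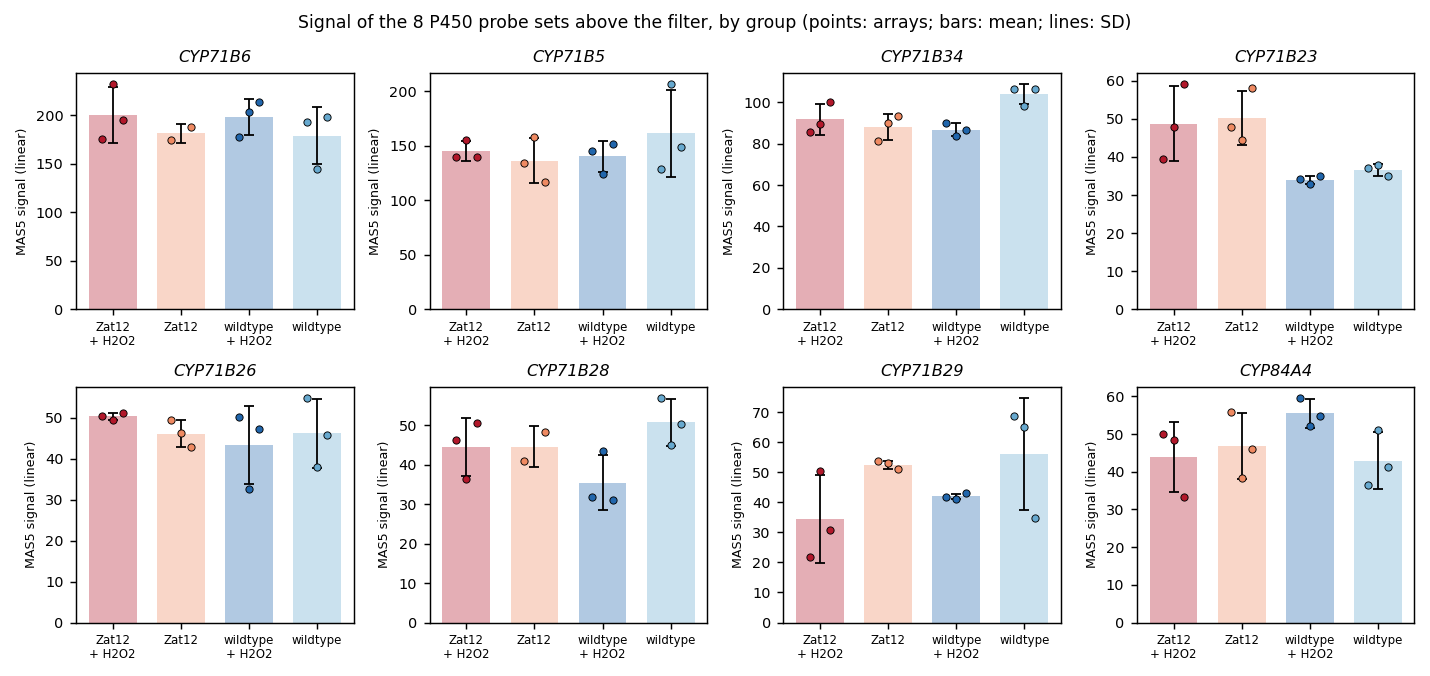
MAS5 signal (linear axis from 0) of the 8 tested P450 probe sets in the 4 groups; points are arrays, bars group means and lines SD (n = 3, or 2 in untreated Zat12 where a cell was empty). The CYP71B23 points of both Zat12 groups lie above all wildtype points, and CYP71B29 has the widest span, its highest signal being 3.14 times its lowest.

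Among the members with a described substrate, CYP71B6 (AT2G24180) converts indole-3-acetonitrile to indole-3-carbaldehyde and indole-3-carboxylic acid. Its signals were 175.2, 231.9 and 195.1 in H2O2-treated Zat12, against 174.7 and 188.0 on the 2 untreated Zat12 arrays with a value. In wildtype they were 177.2, 203.6 and 214.1 with H2O2, against 192.9, 145.1 and 198.6 without. All groups overlapped. The log2 fold change for H2O2 was 0.14 ± 0.16 (SE) in Zat12 and 0.16 ± 0.14 in wildtype, with adjusted p-values of 0.622 and 0.475 in limma.

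CYP84A4 (AT5G04330) takes part in the synthesis of arabidopyrones, which branch off from the phenylpropanoid pathway. In Zat12 its signals were 50.1, 48.3 and 33.3 with H2O2, against 56.0, 38.5 and 46.1 without, with overlap and a log2 fold change of -0.09 ± 0.19. Its signals in wildtype were 59.6, 52.1 and 54.7 with H2O2, against 36.4, 51.1 and 41.3 without, and these groups did not overlap. In wildtype H2O2 gave a log2 fold change of 0.36 ± 0.19 with an adjusted p of 0.191 in limma and a 95% interval of -0.04 to 0.76. The interaction of -0.45 ± 0.27 had an adjusted p of 0.751 in limma, so the 2 responses were not shown to differ.

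The 7 tested CYP71B genes lie mostly in runs of neighbouring P450 genes. In the gene order of the RefSeq table, CYP71B28 and CYP71B29 stand beside each other in a run of 5 P450 genes from AT1G13070 to AT1G13110. CYP71B23 belongs to a run of 10 from AT3G26150 to AT3G26230, and CYP71B26 and CYP71B34 to one of 8 from AT3G26270 to AT3G26330. CYP71B5 heads a pair with CYP71B30P, and CYP71B6 has no P450 neighbour. How well the array's probes tell such neighbouring relatives apart was not analysed here.

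In CYP71B28 (AT1G13090) the Zat12 signals were 46.3, 36.5 and 50.6 with H2O2, against 40.8 and 48.3 without, and these groups overlapped. For Zat12 the log2 fold change was -0.01 ± 0.21. The wildtype signals were 31.7, 43.6 and 31.1 with H2O2, against 56.9, 44.9 and 50.2 without. The treated arrays were all below the untreated ones, and the log2 fold change of -0.49 ± 0.19 missed the threshold with an adjusted p of 0.0717 in limma. Without replicate 2 of H2O2-treated wildtype, the array at 43.6, the log2 fold change was -0.64 with an adjusted p of 0.0370 in limma. The interaction of 0.48 ± 0.28 had an adjusted p of 0.750 in limma.

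Its neighbour CYP71B29 (AT1G13100) had signals of 21.8, 50.6 and 30.8 in H2O2-treated Zat12, against 53.6, 53.0 and 51.04 in untreated Zat12. The treated arrays differed among themselves by more than those of the untreated group, and all were below it. Its log2 fold change was -0.64 ± 0.26, with a 95% interval of -1.18 to -0.10 and an adjusted p of 0.0972 in limma. Without replicate 2 of H2O2-treated Zat12 it was -0.94 with an adjusted p of 0.0139 in limma, and without replicate 3 of untreated wildtype, which sets only the shared spread here, the adjusted p was 0.0498. In wildtype the signals were 41.7, 41.2 and 43.0 with H2O2, against 68.6, 65.0 and 34.6 without. That untreated group held both higher and lower arrays than the treated one, and the log2 fold change was -0.34 ± 0.26 with an adjusted p of 0.379 in limma. The interaction was -0.31 ± 0.36. The neighbours CYP71B28 and CYP71B29 thus had their larger H2O2 value in different genotypes, but neither interaction passed the test.

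CYP71B34 (AT3G26300) varied little, with a highest signal 1.31 times its lowest over the 12 arrays, the narrowest span of the 8. In Zat12 it was 85.6, 89.8 and 100.1 with H2O2, against 81.2, 89.8 and 93.4 without, with overlap and a log2 fold change of 0.06 ± 0.12. In wildtype it was 89.9, 83.7 and 86.9 with H2O2, against 106.6, 98.3 and 106.6 without. These wildtype groups did not overlap, and the log2 fold change of -0.25 ± 0.12 had an adjusted p of 0.140 in limma. The untreated Zat12 arrays were also below the untreated wildtype arrays, with a log2 fold change for Zat12 of -0.23 ± 0.12 and an adjusted p of 0.455 in limma. All 3 other groups stood close together, and the comparisons for H2O2 and for genotype share the untreated wildtype arrays.

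CYP71B5 (AT3G53280) and CYP71B26 (AT3G26290) overlapped between the groups in every comparison. CYP71B5 averaged 145.0 ± 9.07 in H2O2-treated Zat12, 136.5 ± 20.4 in untreated Zat12, 140.3 ± 14.0 in H2O2-treated wildtype and 161.5 ± 40.2 in untreated wildtype (SD, n = 3 each). CYP71B26 averaged 50.4 ± 0.939 in H2O2-treated Zat12, 46.2 ± 3.30 in untreated Zat12, 43.3 ± 9.47 in H2O2-treated wildtype and 46.2 ± 8.45 in untreated wildtype (SD, n = 3 each). For H2O2 the log2 fold changes in Zat12 and wildtype were 0.09 and -0.18 in CYP71B5, and 0.12 and -0.09 in CYP71B26.

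**Figure D2:**
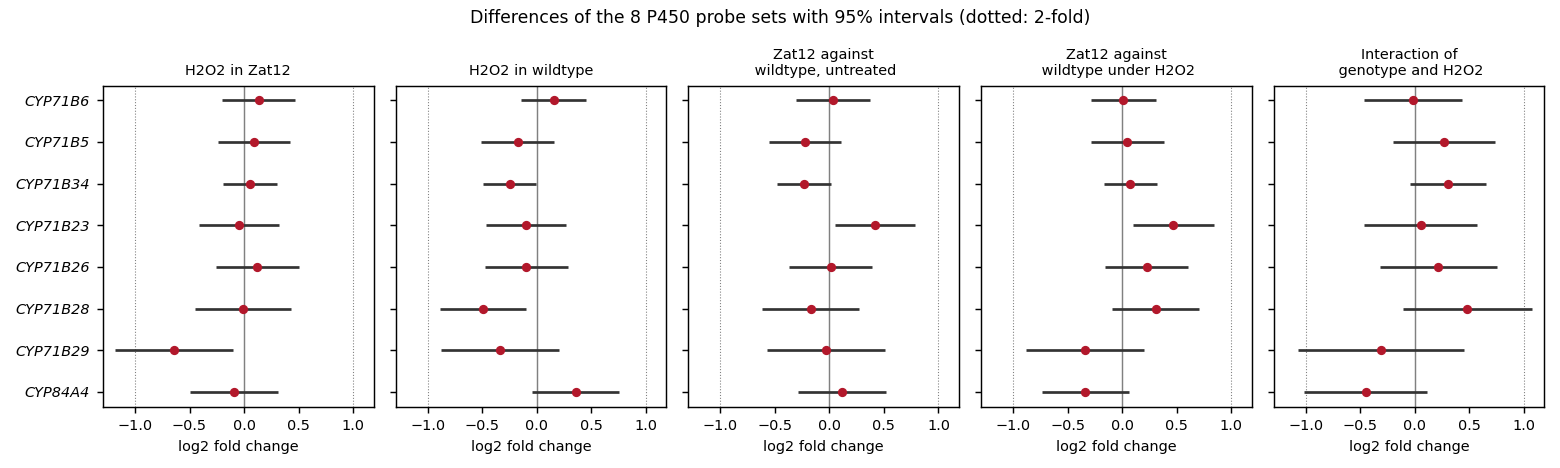
Log2 fold changes (points) with 95% intervals (lines) of the 8 tested members in the 5 comparisons, from limma; dotted lines mark 2-fold. In H2O2 in Zat12 the interval of CYP71B29 reaches -1.18, in H2O2 in wildtype all 8 lie within 2-fold, and for the interaction 5 of 8 lie within it.

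For H2O2 as a whole, 4 of the 8 members had a negative and 4 a positive log2 fold change in Zat12, with a median of 0.02 beside -0.09 over all probe sets tested. In wildtype, 6 were negative and 2 positive, with a median of -0.14 beside -0.07. The median size of the log2 fold change without its sign was 0.09 for the members and 0.21 for all probe sets in Zat12, and 0.21 for the members and 0.23 for all probe sets in wildtype. The members' standard errors were close to those of the array, with a median of 0.18 beside 0.16 in both comparisons. The 95% interval lay within 2-fold for 7 of 8 members in Zat12, the exception being CYP71B29, and for 8 of 8 in wildtype. On the log2(signal + 3) scale, most of the 8 tested members therefore had H2O2 intervals within 2-fold. Differences were not shown to be absent. The intervals were not adjusted for the number of members. They cover only the variation among these arrays, part or all of which may be technical. This description does not extend to the 15 members below the filter.

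Groups that do not overlap gave a second description of the same differences. For H2O2 in Zat12 it held for 1 of 8 members, CYP71B29 lower, beside 39.6% of all probe sets tested. For H2O2 in wildtype it held for 4 of 8, CYP84A4 higher and CYP71B23, CYP71B28 and CYP71B34 lower, beside 37.3%. In CYP71B23 it held only barely, with the highest treated array at 34.87 and the lowest untreated array at 34.89. The 25S control was also higher in H2O2-treated than in untreated wildtype, by the values given above. A fit with it as a covariate can therefore separate H2O2 from the 25S signal only in part. With its log2 signal as a covariate in limma, the log2 fold changes for H2O2 in wildtype were -0.49 for CYP71B28, -0.23 for CYP71B34 and 0.39 for CYP84A4, close to those without it. That of CYP71B29 was -0.05, against -0.34 without the covariate, and that of CYP71B23 was 0.17, against -0.10. The adjusted p-values of these 5 members in that limma fit lay between 0.329 for CYP71B28 and 0.954 for CYP71B29.

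**Figure D3:**
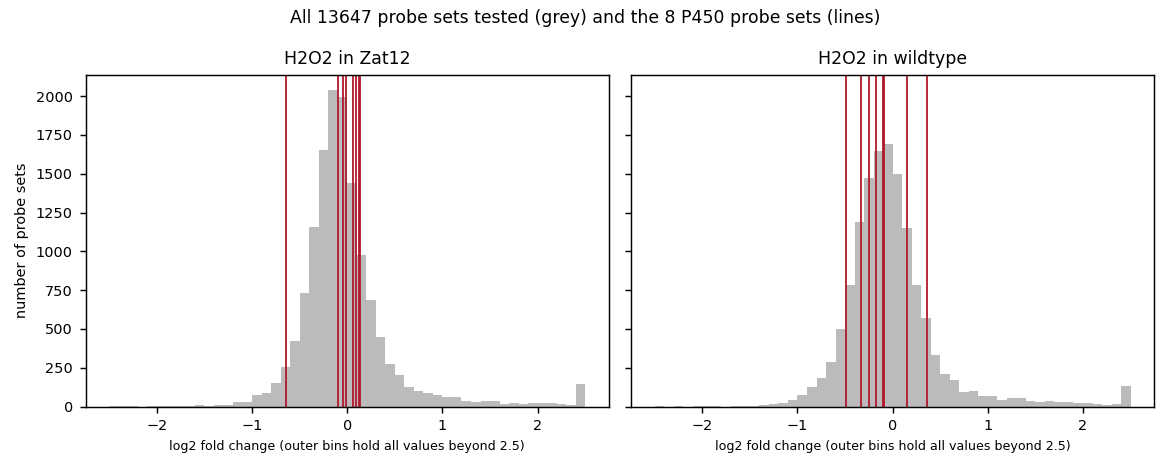
Number of probe sets (vertical axis) by log2 fold change for H2O2 in Zat12 (left) and in wildtype (right), over the 13647 tested, with a line for each of the 8 P450 members. The members lie between -0.64 and 0.14 in Zat12 and between -0.49 and 0.36 in wildtype, inside the bulk of the distribution.

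Between the genotypes, CYP71B23 (AT3G26210) had the largest value of the 8 tested members in both treatments. Without treatment its signals were 47.9, 44.4 and 58.2 in Zat12, against 37.1, 37.8 and 34.9 in wildtype. Under H2O2 they were 39.6, 47.8 and 59.0 in Zat12, against 34.1, 32.8 and 34.9 in wildtype. All 6 Zat12 arrays were above all 6 wildtype arrays, and the Zat12 arrays spread more. The log2 fold change for Zat12 was 0.42 ± 0.18 without treatment and 0.47 ± 0.18 under H2O2, with adjusted p-values of 0.337 and 0.170 in limma. The 95% intervals ran from 0.05 to 0.79 and from 0.10 to 0.84. Its log2 fold change for H2O2 was -0.05 ± 0.18 in Zat12 and -0.10 ± 0.18 in wildtype, and the interaction was 0.05 ± 0.25.

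Over the 8 members the median log2 fold change of Zat12 against wildtype was -0.01 without treatment, beside -0.00 over all probe sets, and 0.06 under H2O2, beside -0.01. Groups did not overlap in 2 of 8 members without treatment, CYP71B23 higher and CYP71B34 lower in Zat12, beside 18.6% of all probe sets tested. Under H2O2 they were also 2 of 8, CYP71B23 higher and CYP84A4 lower, beside 23.5%. CYP84A4 had a log2 fold change of -0.34 ± 0.19 there, with an adjusted p of 0.400 in limma. The shoot marker LHCB4.3 was called lower in Zat12, with a log2 fold change of -0.72 without treatment and -0.77 under H2O2 (adjusted p of 0.00192 and 0.000952 in limma). The root hair marker EXPA7 was called lower with H2O2 in Zat12, at -1.18 with an adjusted p of 9.42e-05 in limma. In wildtype its log2 fold change for H2O2 was -0.48 with an adjusted p of 0.0614. Its interaction of -0.70 had an adjusted p of 0.560 in limma, so the responses were not shown to differ. Whether the share of shoot or root tissue had a part in the members' values was not tested.

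For the interaction, 5 members had a positive and 3 a negative value, from -0.45 in CYP84A4 to 0.48 in CYP71B28. Their median was 0.13, beside -0.01 over all probe sets tested, and the adjusted p-values in limma lay between 0.728 and 0.991. The intervals of 3 members extended past 2-fold on 1 side, below it in CYP84A4 (to -1.02) and CYP71B29 (to -1.07) and above it in CYP71B28 (to 1.08), so a difference of 2-fold in that direction lay within them.

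The 15 members below the filter had signals from 0.416 to 52.7. In 11 of them every array was under the threshold signal of 28.1, and in 4 of these every array was under 10. Those under 10 throughout were CYP71B21, CYP71B30P, CYP71B31 and CYP79A2. The other 4 of the 15, CYP51G2, CYP71B27, CYP71B35 and CYP71B37, had at least 1 array above 28.1. Replicates of these low members spread more than those of the tested ones, with a median within-group SD of 0.40 on the log2 scale, against 0.16 in the tested members.

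Among those with a known role, CYP79A2 (AT5G05260), which turns phenylalanine into phenylacetaldoxime for benzylglucosinolate, was between 0.879 and 2.70 with a median of 1.46. CYP78A9 (AT3G61880), known for its effect on fruit and seed size, was between 3.16 and 18.0 with a median of 14.0. CYP51G2 (AT2G17330), a transcribed pseudogene related to the sterol 14-demethylase gene, was not on the list of P450s with known roles. It was 15.2, 20.8 and 16.2 in H2O2-treated Zat12, against 26.4, 27.4 and 25.6 in untreated Zat12. These groups did not overlap. In wildtype its replicates ranged from 3.21 to 18.6 with H2O2 and from 5.68 to 29.5 without, and the groups overlapped.

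**Figure D4:**
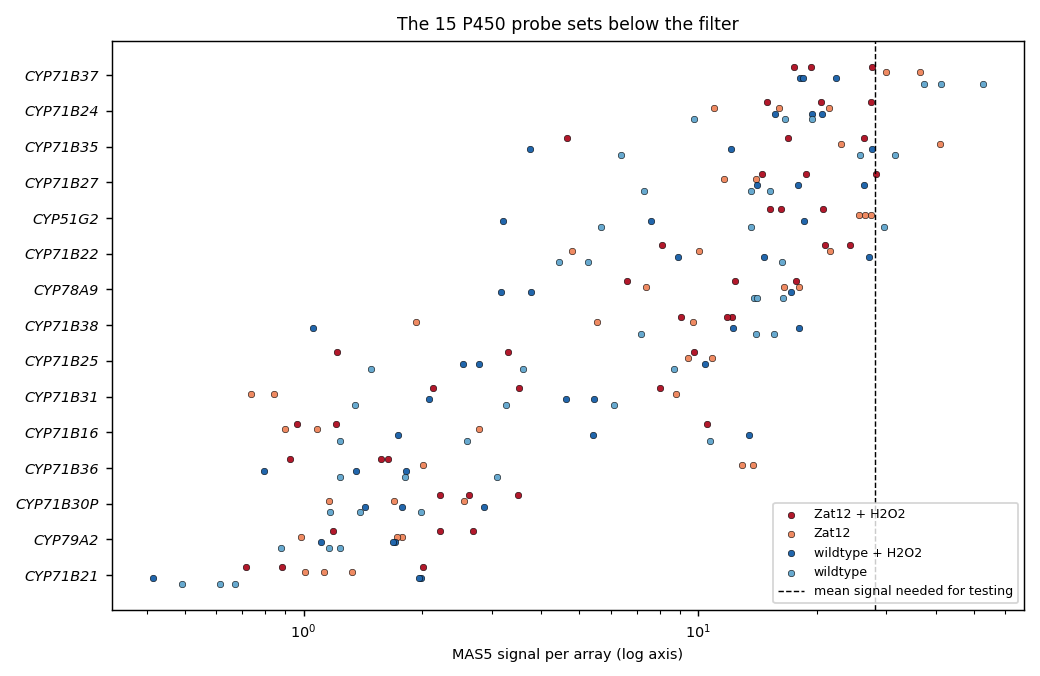
MAS5 signal per array (log axis) of the 15 members below the filter, coloured by group; the dashed line is the mean signal of 28.1 needed for testing. Points of CYP71B37 lie on both sides of the line, and all points of CYP71B21, CYP71B30P, CYP71B31 and CYP79A2 lie under 10.

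With no filter, a fit over all 22746 probe sets tested all 23 members. It called 1 of 23 in H2O2 in Zat12, beside 9.79% of all probe sets, 1 of 23 in H2O2 in wildtype, beside 12.2%, and 0 of 23 in the other 3 comparisons. The background there was 0.264% for Zat12 against wildtype without treatment, 1.11% under H2O2 and 0.0132% for the interaction. The member called in Zat12 was CYP71B36 (AT3G26320). The member called in wildtype was its neighbour CYP71B37 (AT3G26330), whose mean log2 of 4.93 over 11 arrays was just under the threshold of 4.96. Each fell with H2O2 in the genotype in which it was called.

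CYP71B37 was 19.3, 27.7 and 17.5 in H2O2-treated Zat12, against 36.6 and 29.9 on the 2 untreated Zat12 arrays with a value. These groups did not overlap, and the log2 fold change of -0.58 ± 0.27 had an adjusted p of 0.234 in limma. In wildtype it was 18.1, 22.4 and 18.5 with H2O2, against 37.4, 52.7 and 41.2 without. Every treated wildtype array was below every untreated one. This log2 fold change was -1.04 ± 0.24, with a 95% interval of -1.56 to -0.51 and an adjusted p of 0.0128 in limma. The interaction of 0.45 ± 0.36 had an adjusted p of 0.891, so the call in wildtype alone does not show a difference between genotypes. The call in wildtype was kept in 18 of 20 alternatives to the fit without a filter, with adjusted p-values from 0.00767 to 0.128. It was lost without replicate 2 of untreated wildtype, at -0.90 with an adjusted p of 0.0513, and with the 25S signal in the model, at -1.11 with an adjusted p of 0.128. The 25S signal itself differed between treated and untreated wildtype, so the latter fit separates it from H2O2 only in part.

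CYP71B36 was 1.57, 0.925 and 1.64 in H2O2-treated Zat12, against 12.9, 2.01 and 13.7 in untreated Zat12. Its 2 higher arrays stood apart from all other arrays, which were at most 3.09. Its log2 fold change of -1.33 ± 0.38 had an adjusted p of 0.0398 in limma. It was called in 8 of 20 alternatives to that fit, with adjusted p-values from 0.000269 to 0.158. Without replicate 1 or replicate 3 of untreated Zat12 it was -1.07 and -1.03 (adjusted p of 0.156 and 0.158 in limma), and without replicate 2, the array with the empty cells, it was -1.90 (adjusted p of 0.000269). At signals this low the offset also sets its size, which was -2.41 with no offset and -0.64 with an offset of 12. In wildtype it was 1.82, 1.36 and 0.794 with H2O2, against 1.81, 1.24 and 3.09 without. The interaction of -1.12 ± 0.53 had an adjusted p of 0.807 in limma, so the responses of the genotypes were not shown to differ.

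**Figure D5:**
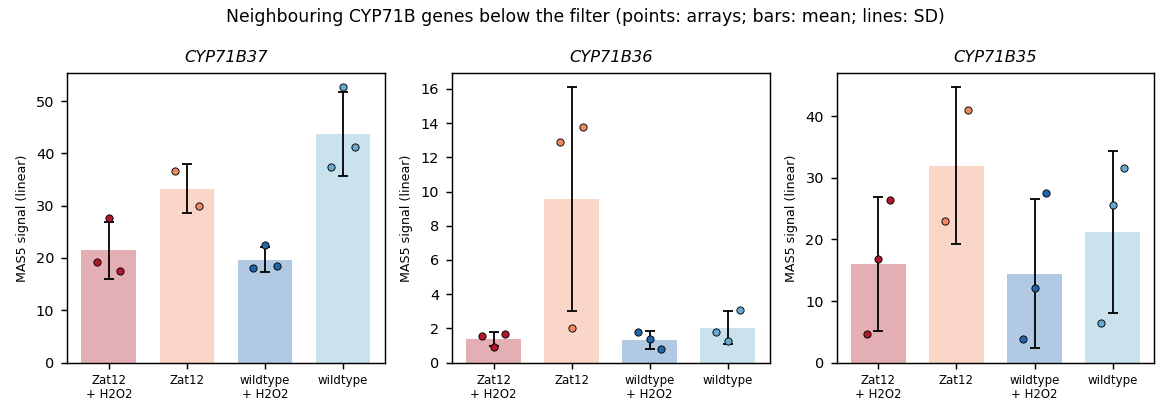
MAS5 signal (linear axis from 0) of the 3 neighbouring genes CYP71B37, CYP71B36 and CYP71B35 in the 4 groups; points are arrays, bars means and lines SD (n = 3, or 2 in untreated Zat12 for CYP71B37 and CYP71B35). CYP71B37 is at or below 27.7 on all 6 treated arrays and at or above 29.9 on all untreated ones, while CYP71B36 has 2 high arrays in untreated Zat12.

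The third gene of this stretch, CYP71B35 (AT3G26310), was 4.65, 16.9 and 26.3 in H2O2-treated Zat12, against 23.0 and 41.0 in untreated Zat12. In wildtype it was 3.76, 12.1 and 27.5 with H2O2, against 6.38, 25.6 and 31.5 without. Replicates spread over a wide range in both, and the groups overlapped. The log2 fold changes without the filter were -1.04 ± 0.72 in Zat12 and -0.53 ± 0.64 in wildtype, with adjusted p-values of 0.468 and 0.707 in limma.

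Over all 23 members, groups did not overlap in 5 for H2O2 in Zat12 (1 higher, 4 lower), beside 30.3% of all probe sets, and in 5 for H2O2 in wildtype (1 higher, 4 lower), beside 28.3%. The members below the filter among them were CYP71B36, CYP71B37 and CYP51G2, lower, and CYP71B27, higher, in Zat12, and CYP71B37, lower, in wildtype. CYP71B27 was 28.3, 18.8 and 14.5 in H2O2-treated Zat12, against 11.6 and 14.0 in untreated Zat12, and its log2 fold change of 0.53 ± 0.37 had an adjusted p of 0.474 in limma. Between the genotypes groups did not overlap in 5 of 23 members without treatment (3 higher, 2 lower in Zat12), beside 16.2%, and in 2 of 23 under H2O2, beside 18.7%.

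The averages over the other factor were chosen after the values of CYP71B23 had been seen and are descriptions. Averaged over both treatments, 1 of 8 members was called between Zat12 and wildtype, beside 5.61% of all probe sets. This was CYP71B23, at 0.44 ± 0.12 with an adjusted p of 0.0444 in limma, and it was called in 8 of 20 alternatives (adjusted p from 0.0264 to 0.120). Averaged over both genotypes, 1 of 8 was called for H2O2, beside 32.5%. This was CYP71B29, at -0.49 ± 0.18 with an adjusted p of 0.0463, and it was called in 6 of 20 alternatives (adjusted p from 0.00629 to 0.377). With the 25S signal in the model its value was -0.31.

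A list held 32 genes, possible electron partners of P450s or steps of the glucosinolate, camalexin and phenylpropanoid pathways. Of these, 4 had a named probe set and 3 were tested. None of the 3 was called lower with H2O2 or called between the genotypes. For H2O2, 1 of the 3 was called higher in both genotypes, beside 17.3% of all probe sets called either way in Zat12 and 22% in wildtype. It was UGT74B1 (AT1G24100), the glucosyltransferase that acts on thiohydroximates in glucosinolate synthesis, downstream of the CYP79 and CYP83 enzymes. Its signals were 129.9, 132.6 and 146.2 in H2O2-treated Zat12, against 90.5 and 97.1 on the 2 untreated Zat12 arrays with a value. In wildtype they were 136.9, 148.1 and 136.8 with H2O2, against 79.1, 63.3 and 96.2 without. The treated arrays were above the untreated ones in both genotypes. The log2 fold change was 0.52 ± 0.16 in Zat12 and 0.82 ± 0.14 in wildtype, with adjusted p-values of 0.0281 and 0.000418 in limma. With the 25S signal in the model both missed the threshold, at 0.42 with an adjusted p of 0.0648 in Zat12 and 0.59 with 0.0623 in wildtype. The mean 25S signal was higher with H2O2 in both genotypes, so that fit separates it from the treatment only in part. The Zat12 call was also lost without replicate 1 or 3 of untreated Zat12 (0.155 and 0.0806) and without replicate 3 of H2O2-treated Zat12 (0.0943). CYP79A2, the only CYP79 among the members, was below the filter, as given above.

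HCT (AT5G48930), which makes the ester that the P450 CYP98A3 hydroxylates, had a log2 fold change for H2O2 of -0.32 ± 0.11 in Zat12 and -0.14 ± 0.11 in wildtype (adjusted p of 0.0573 and 0.418 in limma), and the Zat12 value passed the threshold in 7 of 23 alternatives. AT5G20080, a NADH-cytochrome b5 reductase gene, had -0.22 ± 0.13 in Zat12 and 0.00 ± 0.13 in wildtype (adjusted p of 0.268 and 0.984). AT3G02280, a diflavin reductase gene, was below the filter, with signals from 4.91 to 33.3. Whether either reductase passes electrons to P450s was not tested.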

How the data were processed

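The authors deposited 1 table of signal intensity on a linear scale, 1 value per probe set and array, made with MAS5 per the submitters' processing notes. Which version was used, and the detection calls, are not given in the sources used here. Probe sets were named from the platform annotation, in which 13513 of 22746 probe sets had 1 gene, 503 several and 8730 none, and names were updated through the RefSeq gene table of TAIR10.1, which held all 23 members. Its start coordinates were used only to order genes along the chromosomes, for the neighbours and runs. The 64 control probe sets were left out, and empty cells stayed empty.

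Intensities were turned into log2(signal + 3). On this scale a fold change of a dim probe set comes out too small. The test covered the 13647 probe sets with a mean above the 40th percentile. limma 3.58.1 in R 4.3.3 fitted a single model to all 12 arrays by group, using a mean-variance trend, and p-values were adjusted by the method of Benjamini and Hochberg over all probe sets tested. The number of arrays limits the precision. The code was tested on simulated arrays, and tables and plots were made with Python 3.11.15, pandas 2.3.3 and matplotlib 3.10.9.

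The members, gene lists and tests were chosen with earlier results of these data known. Members could be named if they were called or belonged to a list of P450s with known roles, and the other members were named after their values were seen. Likeness between genes was not computed because no member was called. Deviations of same-numbered arrays from their group means correlated between -0.25 and 0.23 over 18 pairs, 7 of them over 0.1. All 3 pairs of H2O2-treated Zat12 with H2O2-treated wildtype were over 0.1 (0.122, 0.141 and 0.140). Arrays with different numbers were not compared in this way, so these values cannot show whether the numbers pair the arrays. In no other comparison were all 3 pairs over 0.1, the nearest being H2O2-treated with untreated Zat12 (0.0896, 0.119 and 0.229). No other pair of arrays looked like a repeat, the highest correlation being 0.974. Alternatives covered scaling, offset, filter, trend, the arrays in the fit, the replicate number as a block, the 25S control as a covariate, the threshold, the choice of members and each array left out.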

Additional observations from a re-analysis of the deposited data

How the results depend on the processing

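Of 887 values of the tested members under 23 alternatives, 884 stayed on the same side of the threshold, 3 were newly called and 42 had the opposite sign without being called in either. The 3 newly called were CYP71B29 in Zat12 without replicate 2 of H2O2-treated Zat12 or replicate 3 of untreated wildtype, and CYP71B28 in wildtype without replicate 2 of H2O2-treated wildtype. The number of members called was 0 in each comparison. With no filter it was 1 for H2O2 in Zat12 and 1 for H2O2 in wildtype, and with only the compared groups in the fit it was 1 for H2O2 in wildtype, CYP71B37, which then passed the filter (adjusted p of 0.00552 in limma). With each array left out it ranged from 0 to 1 for H2O2 in Zat12 and from 0 to 1 for H2O2 in wildtype. CYP71B37 gave that call without replicate 1 or 3 of H2O2-treated wildtype and without replicate 1 or 3 of H2O2-treated Zat12, where it passed the filter. Without replicate 2 of untreated Zat12, the array with empty cells, the number was 0 in all 5 comparisons. With the replicate number as a block (replicate block) it was 0 in all 5, also for Zat12 against wildtype under H2O2. The block changed no call of a member, while HCT in Zat12 was then called (adjusted p of 0.0498 in limma). The share of all probe sets called moved more, from 9.79% to 23.2% for H2O2 in Zat12, from 12.2% to 29.3% for H2O2 in wildtype, from 0.264% to 1.76% and from 0.747% to 4.81% for Zat12 against wildtype without and with H2O2, and from 0.0132% to 0.352% for the interaction. Low signal limits the members below the filter, whose median within-group SD was 0.40 on the log2 scale, against 0.16 in the tested members.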

Other observations

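A further probe set was paired with more than 1 gene, all of them P450s, and so was not a member. It was 82.5, 103.7 and 86.4 in H2O2-treated Zat12, against 66.4, 76.8 and 60.7 in untreated Zat12, with no overlap, and its log2 fold change of 0.40 ± 0.15 had an adjusted p of 0.0852 in limma. In wildtype it was 87.3, 114.8 and 88.6 with H2O2, against 88.9, 66.4 and 87.1 without, with overlap and a log2 fold change of 0.25 ± 0.15 (adjusted p of 0.260). CYP718 (AT2G42850), a P450 by its RefSeq name only, was between 1.92 and 2.88 on all 12 arrays and below the filter.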
